A study of Mus musculus with 10 samples.

Results

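The sites described here are control H3K4me3 peaks on chromosomes 1 to 19 that overlapped, by at least 1 bp each, a control H3K27me3 peak and a control H3K27ac peak. They numbered 3192 of 16714 H3K4me3 peaks on these chromosomes, or 19.1%, and of 17322 in the whole control list. They were thus selected on measured peaks of the control H3K4me3, H3K27me3 and H3K27ac lists, and their values in those lists are a description with no test. What the rule did not use is H3K9cr, the crotonate lists, and the position and sequence of the sites.

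Neural stem and progenitor cells had been taken from E13.5 mouse forebrain and cultured in EGF and FGF, each at 20 ng/ml. Control cells were given water and the others 10 mM crotonate, the salt of a short fatty acid, over 24 h. Native chromatin immunoprecipitation, which uses no crosslinking, was sequenced for H3K4me3, H3K9cr, H3K27ac and H3K27me3, with 1 library per mark and treatment. Every difference below is thus a difference between a pair of libraries with no replicate check and no p-value, and the intervals cover counting error only. Antibody catalogue numbers were alike in both treatments, but the labels give another vendor in each treatment for H3K4me3 and H3K27me3, so treatment and reagent cannot be told apart.

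H3K4me3 is deposited at promoters, and H3K27ac is added by acetyltransferases at active promoters and enhancers. H3K27me3 is written by Polycomb repressive complex PRC2 and marks developmental genes that are silent or held ready. Acetyl and trimethyl groups cannot occupy the same lysine of the same histone tail, so where peaks of both overlap the marks lie on different histone copies, in the same or in different nucleosomes or cells. Promoters with H3K4me3 and H3K27me3 together are called bivalent and are common at regulators of development in stem cells. H3K9cr is a crotonyl group on another lysine of the same histone tail, and crotonate feeds the crotonyl-CoA pool from which it is made.

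The labelled cell type was checked on markers with positions on chromosomes 1 to 19. In control, 9 of 10 neural stem and progenitor markers had H3K4me3, H3K27ac and H3K9cr peaks within 1 kb, with Msi1 lacking all. Of 5 markers each, 1 microglial marker (Spi1), 1 endothelial marker (Kdr), 2 mesenchymal markers and 4 oligodendrocyte-lineage markers had H3K27ac. For neurons it was 3 of 4, and for red blood cells 1 of 3. H3K4me3 was at 1 microglial, 1 endothelial, 5 mesenchymal and 5 oligodendrocyte-lineage markers, and H3K9cr at 1, 2, 4 and 5. H3K27me3 was at 1, 2, 5 and 4 of these markers, and at 5 of the 10 neural stem and progenitor markers. By H3K4me3 and H3K9cr the markers thus did not set neural cells apart from mesenchyme or the oligodendrocyte lineage. The part of other cell types in the results was not tested. The lists carry no read totals, so depth is unknown. The crotonate lists held more peaks of lower median fold enrichment: 34707 against 26031 for H3K27me3 (4.03 and 4.34) and 59868 against 52922 for H3K27ac (4.62 and 5.59).

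Promoter sequences of 6 sites are shown because they stand for both outcomes described below. The first 3, at Id3 (an inhibitor of bHLH factors), Notch1 (a Notch receptor) and Fzd7 (a Wnt receptor), had lost their H3K27me3 peak in the crotonate list. The other three, at Gata3 and Isl2 (transcription factors of neuronal subtypes) and Hey2 (a Notch effector), still had it. They were picked after their values were seen. Each is the 250 bases before the gene's start from RefSeq, build GRCm38.p6, read 5′ to 3′ on the gene's strand, with CpG dinucleotides in capitals.
Id3, chr4:136143572-136143821, plus strand: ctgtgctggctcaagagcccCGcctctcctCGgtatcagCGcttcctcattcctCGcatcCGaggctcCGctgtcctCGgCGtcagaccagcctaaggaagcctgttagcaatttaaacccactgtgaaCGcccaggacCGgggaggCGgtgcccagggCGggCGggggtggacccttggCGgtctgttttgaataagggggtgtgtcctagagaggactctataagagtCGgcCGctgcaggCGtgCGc
Notch1, chr2:26503823-26504072, minus strand: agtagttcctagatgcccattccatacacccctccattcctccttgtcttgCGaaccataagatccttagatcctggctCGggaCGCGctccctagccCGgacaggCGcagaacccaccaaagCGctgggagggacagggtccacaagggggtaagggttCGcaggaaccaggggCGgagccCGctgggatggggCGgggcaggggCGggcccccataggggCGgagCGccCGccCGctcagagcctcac
Fzd7, chr1:59481897-59482146, plus strand: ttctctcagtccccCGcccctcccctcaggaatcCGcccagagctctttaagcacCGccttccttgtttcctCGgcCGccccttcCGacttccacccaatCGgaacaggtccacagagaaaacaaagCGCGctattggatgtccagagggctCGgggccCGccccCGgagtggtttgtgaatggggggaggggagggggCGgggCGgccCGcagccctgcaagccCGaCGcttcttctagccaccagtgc
Gata3, chr2:9878601-9878850, minus strand: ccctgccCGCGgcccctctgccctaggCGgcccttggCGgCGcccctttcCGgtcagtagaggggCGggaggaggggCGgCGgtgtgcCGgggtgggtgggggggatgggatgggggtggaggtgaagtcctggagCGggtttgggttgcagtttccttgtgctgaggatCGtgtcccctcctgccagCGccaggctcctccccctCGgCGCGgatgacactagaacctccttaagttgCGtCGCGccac
Isl2, chr9:55540899-55541148, plus strand: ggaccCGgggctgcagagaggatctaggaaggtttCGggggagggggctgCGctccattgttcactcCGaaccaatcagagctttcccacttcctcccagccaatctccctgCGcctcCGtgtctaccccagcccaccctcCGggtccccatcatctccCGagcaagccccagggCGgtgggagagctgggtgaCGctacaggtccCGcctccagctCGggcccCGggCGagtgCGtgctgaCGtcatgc
Hey2, chr10:30842784-30843033, minus strand: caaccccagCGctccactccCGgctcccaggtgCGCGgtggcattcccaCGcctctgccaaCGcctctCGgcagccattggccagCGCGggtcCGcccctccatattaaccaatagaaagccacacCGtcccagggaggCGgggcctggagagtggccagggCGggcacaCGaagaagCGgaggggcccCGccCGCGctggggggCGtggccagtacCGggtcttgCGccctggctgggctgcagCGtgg

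The windows of both kinds were rich in CpG. Id3, Notch1 and Fzd7 held 18, 16 and 17 CpGs, and Gata3, Isl2 and Hey2 held 19, 16 and 22. H3K4me3 and H3K9cr peaks covered all 250 bases of the 6 windows in both treatments. H3K27me3 covered 250 bases at Id3, 156 at Notch1 and 0 at Fzd7 in control, where it lay elsewhere in the site, and 0 at each after crotonate. It covered 250 bases at Gata3, Isl2 and Hey2 in both treatments. H3K27ac covered all 250 bases in both treatments at Id3, Notch1, Fzd7 and Hey2, and 0 at Gata3 and Isl2, where its peak lay elsewhere in the site.

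Sequence was then compared over all sites that hold a gene start. RefSeq gave a start for 16457 of 20665 protein-coding genes on these chromosomes (79.6%), and 1709 starts lay in sites. The 300 bases around them (250 before and 50 after the start) had a median GC content of 66.0% and a median CpG observed-over-expected ratio of 0.765. Starts in H3K4me3 peaks with H3K27me3 but no H3K27ac had 65.7% and 0.708 (n = 570), and those with H3K27ac but no H3K27me3 had 62.0% and 0.816 (n = 7563). The GC content of the sites thus lay near that of H3K4me3 peaks without H3K27ac, and their CpG ratio between those of the other two classes. Starts without an H3K4me3 peak had 47.7% and 0.188 (n = 6558).

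Among the sites, base composition hardly separated those that later lost H3K27me3 from those that kept it. The 557 promoters at sites that lost it had a median GC content of 65.7% and a CpG ratio of 0.762, and the 1152 at sites that kept it had 66.3% and 0.766. From the lowest to the highest quartile of CpG ratio, 34.5%, 31.6%, 30.5% and 33.7% lost H3K27me3, and each of the 4 intervals contains the other shares. The motifs TATAAA (the TATA box), CAGCTG (an E-box) and CGCG, searched on both strands, were in 6.03%, 16.6% and 81.7% of site promoters, beside 13.2%, 15.1% and 52.1% of all promoters. The shares were 6.49%, 17.2% and 78.6% at H3K4me3 peaks without H3K27ac, and 5.53%, 13.2% and 79.4% without H3K27me3. The contrast with all promoters in TATAAA and CGCG is thus shared by these classes. For CAGCTG it is not, since peaks without H3K27me3 lay below all promoters and the sites above. CAGCTG and CGCG read the same on both strands, and no motif of the 3 contains another.

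In control, acetylation sat on the H3K4me3 summit and trimethylation spread over or beside it. H3K27ac covered the summit of the H3K4me3 peak at 3084 of 3192 sites and H3K27me3 at 1952. H3K27me3 covered the whole site at 1042 sites, the summit but not all of the site at 910, and missed the summit at 1240. Both marks shared base pairs at 3068 sites (96.1%). Of the 5.45 Mb in the sites, 38.1% lay under both marks, 18.6% under H3K27me3 only, 38% under H3K27ac only and 5.25% under neither.

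Fold enrichment is the authors' value per peak. Control and crotonate folds are given side by side below as a description and not as a change, since the median fold of the whole list was also lower in crotonate (9.42 against 14.7 for H3K9cr, with H3K27me3 and H3K27ac as above). By fold, the sites were lower in H3K27me3 and H3K27ac than the classes with only the one mark, and lay between them in H3K4me3. The median H3K27me3 fold was 8.94 at the sites and 37.1 at H3K4me3 peaks without H3K27ac, which also had wider H3K27me3 peaks (4440 against 1905 bp). The median H3K27ac fold was 8.57 at the sites and 22.1 at H3K4me3 peaks without H3K27me3. The median H3K4me3 fold was 69.0 at the sites, between 10.7 in the first of those classes and 142 in the second. Since the rule used these lists, no more is read from the values.

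All 3192 sites had an H3K9cr peak in control (a share of at least 99.9% by the lower limit), a mark the rule did not use. So had 98.5% of all H3K4me3 peaks, 99.9% of those with H3K27ac but no H3K27me3 and 88.6% of those with H3K27me3 but no H3K27ac. Crotonylation was therefore present by peak call at nearly every H3K4me3 peak and does not set the sites apart. When only the stronger 50% of the H3K9cr list was read, the share was 91.5% (90.5 to 92.5). The median H3K9cr fold was 42.7 at the sites, beside 8.02 without H3K27ac and 97.1 without H3K27me3.

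After crotonate the sites parted mainly by H3K27me3. No crotonate H3K27me3 peak touched 996 of the 3192 sites (31.2%, 29.6 to 32.8). The background was 22.2% of all H3K4me3 peaks with H3K27me3 and 25.6% of all control H3K27me3 peaks. No H3K27ac peak touched 310 (9.71%, 8.71 to 10.8), beside 3.26% of all H3K4me3 peaks with H3K27ac and 25.3% of all H3K27ac peaks. H3K4me3 was missing at 31 sites (0.971%, background 2.81%) and H3K9cr at 1 (0.0313%, background 0.480%). Here and below a mark is called lost when the crotonate list of that mark has no peak on the site. A peak that fell slightly short of the authors' threshold therefore counts as lost too. Because the sites were selected on control peaks, a mark could only be kept or lost at them, and sites with the opposite history are described near the end.

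Most sites kept every mark. All 4 marks were called at 1903 sites (59.6%, 57.9 to 61.3), and 951 sites (29.8%) differed only by the lack of H3K27me3. H3K27ac alone was missing at 276 sites (8.65%). Sites lacking both H3K27me3 and H3K27ac with H3K4me3 and H3K9cr in place were 30 (0.940%). Loss of the one mark thus seldom went with loss of the other: H3K27ac was lost at 31 of 996 sites that lost H3K27me3 (3.11%, 2.12 to 4.39) and at 279 of 2196 that kept it (12.7%, 11.3 to 14.2).

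The base pairs changed in the same way as the calls. H3K27me3 peaks covered 56.7% of the sites' base pairs in control and 32.9% in crotonate (3.09 and 1.79 Mb, a ratio of 0.580). H3K4me3 peaks without H3K27ac, selected on control cover in the same way, had 95% and 88.3% (a ratio of 0.929). The whole list, which also counts new crotonate peaks, went from 45.1 to 50.4 Mb. H3K27ac went from 76.1% to 66.7% of site base pairs (a ratio of 0.876), beside 94.7% and 87.6% (a ratio of 0.926) at H3K4me3 peaks without H3K27me3. The whole H3K27ac list, new crotonate peaks included, went from 65.3 to 57.4 Mb (a ratio of 0.878), close to the ratio at the sites. H3K9cr covered 97.8% and 96.6%, and H3K4me3 all base pairs in control, by the rule, and 97.4% in crotonate. Among the 2196 sites that kept an H3K27me3 peak, its cover was still lower in crotonate, at 49.7% against 70.8%.

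The base pairs under both marks shrank most. They made up 38.1% of the sites in control and 15.4% in crotonate, whereas H3K27me3 alone held nearly as much (18.6% and 17.5%). H3K27ac alone held more (38% and 51.3%), although its cover as a whole was lower (76.1% and 66.7%), and neither mark held 5.25% and 15.8%. The rule required both marks in control, so the selection favoured base pairs under both there. No other class has both marks for comparison, and the part of selection was not tested. Sites where both marks shared any base pair numbered 3068 in control and 1579 in crotonate. H3K27me3 covered fewer base pairs at 2512 sites and more at 112. H3K27ac covered fewer at 2189 and more at 781. Cover could not rise at the 1042 sites that control H3K27me3 covered whole, nor at the 486 that H3K27ac did. These counts were not made for other H3K4me3 peaks, so they have no background.

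**Figure D1:**
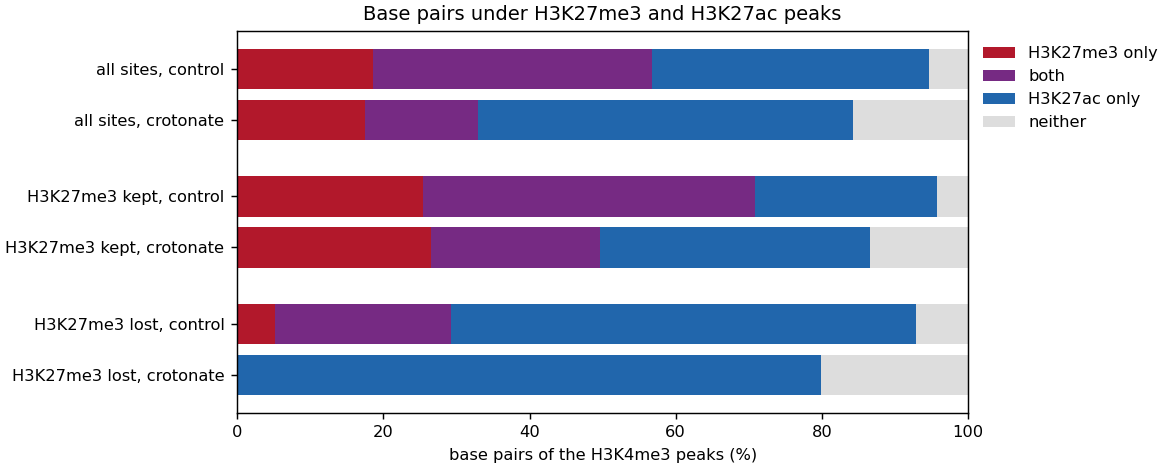
Horizontal bars give the percentage of H3K4me3 peak base pairs under H3K27me3 peaks only, under both, under H3K27ac peaks only and under neither, in control and crotonate, for all 3192 sites, the 2196 that kept H3K27me3 and the 996 that lost it. The part under both marks went from 38.1% to 15.4% over all sites and from 45.4% to 23.2% where H3K27me3 was kept.

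At sites that kept H3K27me3, its cover was lower in crotonate at the H3K4me3 summit. At 1 kb from the summit it was lower by less, and at 3 kb it was not lower. The rule required a control H3K27me3 peak on the site, which favours control cover near the summit. At sites that kept the mark, the share with H3K27me3 at the summit itself was 73.0% in control and 47.1% in crotonate. At 1 kb to either side it was 67.6% and 57.3%, and at 3 kb 24.5% and 24.8%. H3K27ac stayed centred on the summit at these sites, with 95.5% and 83.2% covered there and 18.5% and 15.1% at 1 kb. At sites that lost H3K27me3, the share covered by it was 29.0% and 9.29% at 1 kb, and 8.73% and 7.58% at 3 kb.

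**Figure D2:**
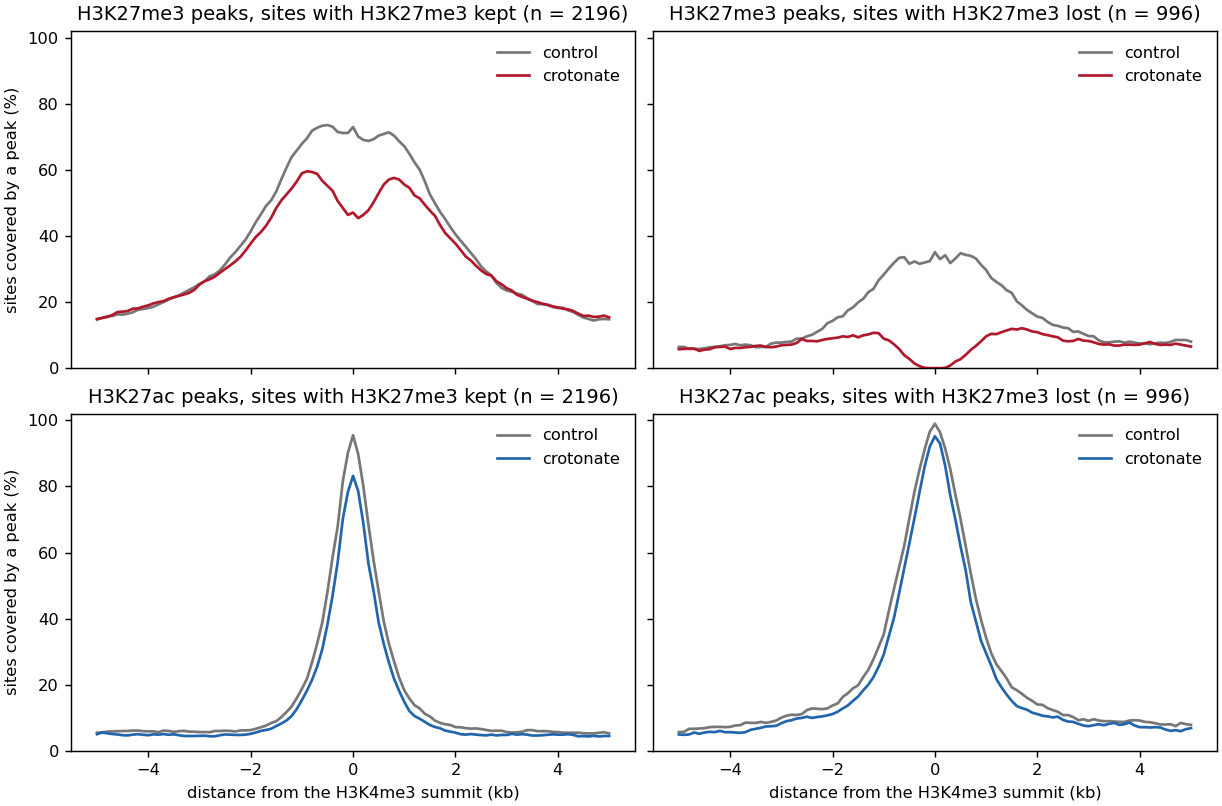
Lines give the percentage of sites covered by an H3K27me3 peak (top) or an H3K27ac peak (bottom) at each distance in kb from the H3K4me3 summit, in control (grey) and crotonate (coloured), for sites that kept H3K27me3 (left) and lost it (right). At kept sites the crotonate H3K27me3 line dips at the summit to 47.1% and meets the control line by 3 kb.

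Loss at a site did not always mean loss of the whole H3K27me3 peak. At 738 of the 996 sites no crotonate peak met the control peak anywhere, and at 258 (25.9%) the control peak met a crotonate peak outside the site. The first group had a median control width of 609.5 bp and a median −log10 q of 5.13. In the second these were 1714 bp and 13.3, and at sites that kept the mark 2659.5 bp and 45.7. The median distance from a site that lost the mark to the nearest crotonate H3K27me3 peak was 7614 bp, and at 341 sites (34.2%) it was within 1000 bp.

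In control, the sites that later lost H3K27me3 had weaker H3K27me3 and stronger values of the other 3 marks than those that kept it. Their median fold was 4.61 against 13.9 for H3K27me3, 13.1 against 7.05 for H3K27ac, 94.3 against 61.5 for H3K4me3 and 63.3 against 37.1 for H3K9cr. They were also wider, with a median of 1594 against 1406 bp.

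Strength of the control H3K27me3 peak went with its fate. In quartiles of control −log10 q, taken over all H3K4me3 peaks with H3K27me3, the sites lost it at 71.1%, 20.9%, 4.71% and 1.59% from the weakest to the strongest. H3K4me3 peaks with H3K27me3 but no H3K27ac lost it at 28.1%, 6.30%, 0.463% and 0.264%. Over all strengths the shares were 31.2% and 4.19% (67 of 1599), a difference of 27 percentage points (25.1 to 28.9). Within quartiles the difference was 43.0 (35.1 to 50.1), 14.6 (9.91 to 18.5), 4.24 (2.41 to 6.04) and 1.33 (0.156 to 3.00) points. The sites lost the mark more often in each of the 4 quartiles, by a margin that fell with strength and beyond counting error in each. Strength was matched only by quartile. In the weakest quartile H3K27me3 covered 29.9% of site base pairs in control and 5.26% in crotonate (a ratio of 0.176), beside 69.7% and 45.5% (0.654) at peaks without H3K27ac. In the strongest it covered 86% and 73.4% (0.853), beside 99.4% and 97.7% (0.983). When only the stronger 50% of each control list chose the peaks, the difference of 21.4 points had an interval from -15.8 to 32.8, so its direction was not settled.

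For H3K27ac the matching comparison rested mainly on weak peaks. The sites lost H3K27ac at 9.71% and H3K4me3 peaks without H3K27me3 at 1.47% (170 of 11545), a difference of 8.24 points (7.21 to 9.34). In the weakest quartile of control H3K27ac −log10 q the shares were 15.7% (14.1 to 17.4) and 9.52% (8.19 to 11.0), a difference of 6.2 points. In the second they were 0% (0 of 765, which allows up to 0.481%) and 0.0691%. In quartile 3 the sites lost it at 2 of 271 (0.738%) and the other peaks at 0 of 3403, a difference of 0.738 points (0.0805 to 2.64). In the strongest they were 0% of 197 and 0% of 3482. Nearly all the loss lay in the weakest quartile, which held 1959 of the 3192 sites.

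**Figure D3:**
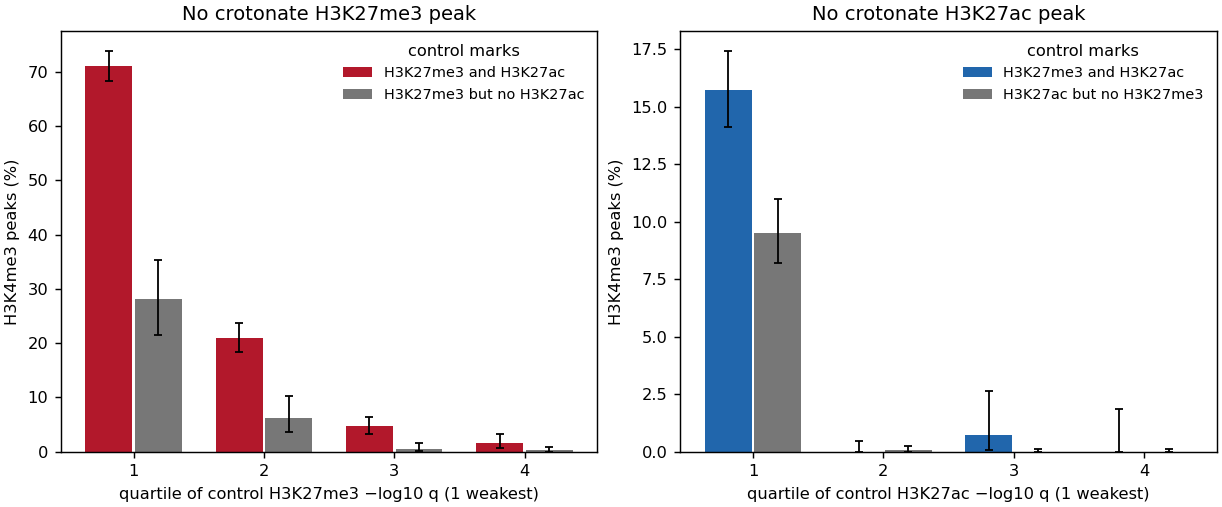
Bars give the percentage of H3K4me3 peaks with no crotonate H3K27me3 peak (left) or H3K27ac peak (right) by quartile of the control peak's −log10 q, with exact 95% intervals for counting error. Sites with both marks are coloured and peaks with only that mark of the pair are grey. The left panel falls from 71.1% to 1.59% at the sites, and in the right panel loss is near 0 beyond the weakest quartile.

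Within quartiles of H3K27me3 strength, loss of H3K27me3 was more frequent where H3K27ac was stronger. With the 3192 sites divided into quartiles of each mark, the weakest H3K27me3 quartile lost it at 53.9%, 63.8%, 83% and 87.9% from the weakest to the strongest H3K27ac. In the strongest H3K27me3 quartile the shares were 0.304%, 1.41%, 5.59% and 6.19%. Over all sites they were 12.3%, 23.2%, 37.9% and 51.6%. Strongest minus weakest H3K27ac gave 39.4 points (35.0 to 43.5). H3K27ac loss ran the other way along the H3K27me3 axis, with 3.74%, 6.69%, 9.31% and 19.2% from the weakest to the strongest H3K27me3. In the weakest H3K27ac quartile alone it was 26.5% at the weakest and 39.8% at the strongest H3K27me3.

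**Figure D4:**
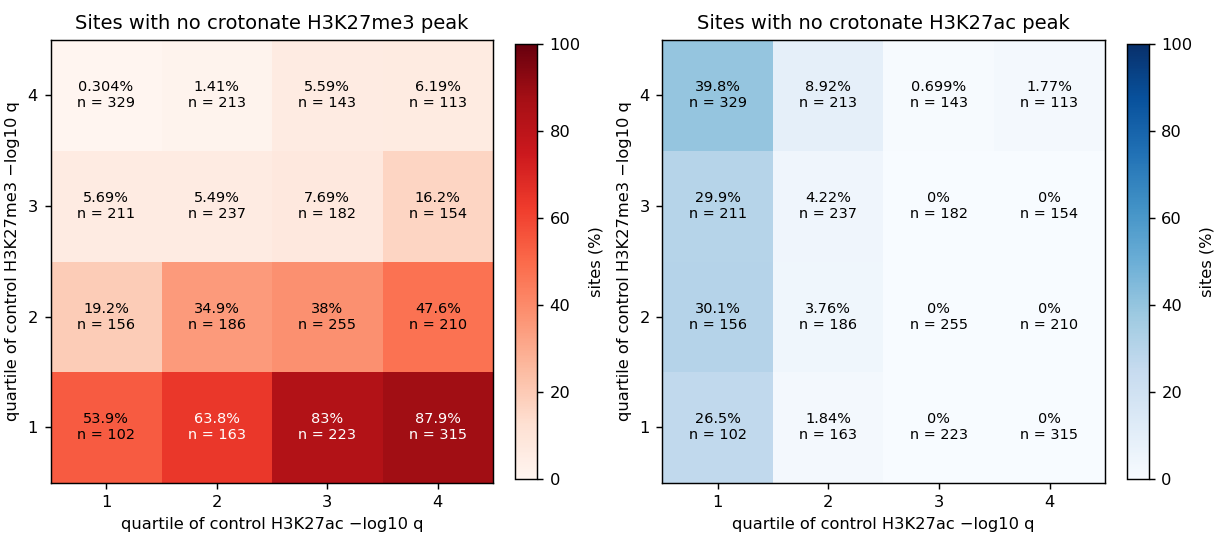
Each square holds the sites of 1 quartile of control H3K27ac −log10 q (horizontal, 1 weakest) and 1 of control H3K27me3 −log10 q (vertical), with the percentage that had no crotonate H3K27me3 peak (left) or no H3K27ac peak (right) and the number of sites. H3K27me3 loss is highest, 87.9%, at weak H3K27me3 with strong H3K27ac, and H3K27ac loss highest, 39.8%, at weak H3K27ac with strong H3K27me3.

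Placement within the site showed the same split. Where H3K27me3 covered the whole site, 4.51% of 1042 sites lost it and 19.5% lost H3K27ac. Where it covered the summit but not the whole site, the shares were 33.3% and 6.59%, and where it missed the summit 52.1% and 3.79%. Width went with it, since 81.2% of 372 sites with an H3K27me3 peak narrower than 500 bp lost the mark and 4.69% of 512 with one of 5 kb or more did. The strength, width and placement of a peak move together and were not separated. By chromosome, 27.3% to 38% of sites lost H3K27me3, and sites within 1 kb of a gene position lost it as often as others (31.1% of 2364 and 31.4% of 828).

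Genes were assigned where a gene start, or either annotated end where no start was given, lay within 1 kb of a site. This gave 2434 of 20665 protein-coding genes (11.8%). Each gene was read at its site with the strongest H3K4me3. By that reading 31.3% of genes lost H3K27me3 and 8.67% lost H3K27ac, which is the background for the 19 gene lists below. The intervals on the lists are wide, and neighbouring genes can share a site.

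Neural stem and progenitor genes were at sites in 21 of 35 cases, and 11 of the 21 lost H3K27me3 (52.4%, 29.8 to 74.3) while 0 lost H3K27ac. Id3 lay at chr4:136143333-136146339, where the H3K27me3 peak covered 2190 bp with a fold of 6.78 in control and was absent after crotonate. H3K27ac there had a fold of 26.5 in control and 15.2 in crotonate and covered all 3007 bp in both, and H3K9cr had folds of 161 and 64.6. Notch1, at chr2:26501068-26504475, had an H3K27me3 peak of 734 bp (fold 5.15) that was gone after crotonate, with the nearest one 63525 bp away. Hmga2, a chromatin architectural factor of young progenitors, lost cover of 2927 bp, and its H3K27ac fold was 28.7 and 22.8.

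At some named sites the control peak still met a crotonate peak outside the site. Sox1, a neural progenitor factor at chr8:12394172-12399174, had 2475 bp under a control H3K27me3 peak 13977 bp wide, and a crotonate peak remained 498 bp from the site. The stem cell genes that kept the mark included Pax6, Lhx2, Prom1 and Hes1. Hes1, the effector of Notch signals, had 2889 bp under H3K27me3 in control and 621 in crotonate. At Lhx2, a cortical selector gene, the cover was 2752 and 2245 bp and the fold 29.1 and 5.82. Hes1 and Lhx2 thus kept the call with fewer base pairs under it, whereas Pax6 had 1416 bp under H3K27me3 in both treatments.

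Forebrain patterning factors, which divide the early forebrain into regions, were at sites in 27 of 45 cases, and 2 of 27 lost H3K27me3 (7.41%, 0.910 to 24.3). The median control H3K27me3 −log10 q was 957 for this list, 11.5 for the stem cell list and 22.6 for all genes at sites, so the lists also differ in strength. One that lost it was Meis1, a homeobox factor, with 1379 bp under H3K27me3 and a fold of 5.15 in control. Its H3K27ac had folds of 32.8 and 26.8 and covered all 7543 bp of the site in both treatments.

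The next examples are patterning factors with the strongest H3K27me3 among those that kept it, and they held it broadly. At Irx5 it covered 3802 bp in control and 3088 in crotonate, with folds of 214 and 119. Lmx1a and En1, factors of the midline and midbrain, had H3K27me3 over the whole site in both treatments. Their weak H3K27ac peaks (folds of 3.65 and 3.41 in control) had no crotonate counterpart. In all, 3 of the 27 lost H3K27ac.

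Of the Notch pathway, 12 of 29 genes were at sites and 6 lost H3K27me3 (50.0%, 21.1 to 78.9), with a median control −log10 q of 27.9. The losses included the feedback inhibitor Nrarp (1541 bp, fold 11.9), the receptors Notch1 and Notch2, and the ligand Jag1 (255 bp, fold 3.82). All of these kept H3K4me3, H3K27ac and H3K9cr. Hey2, at chr10:30841844-30843602, kept H3K27me3 over all 1759 bp with folds of 37.9 and 32.1. Heyl, another effector, kept H3K27me3 over its 571 bp and lost H3K27ac (fold 4.08 in control).

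Wnt pathway genes were at sites in 25 of 57 cases, and 8 lost H3K27me3 (32.0%, 14.9 to 53.5), close to the background. Among these were the receptors Fzd7 (1948 bp, fold 6.50), Fzd2 (970 bp, fold 5.15) and Fzd1 (1129 bp, fold 4.88) and the transcription factor Tcf7, where a crotonate peak stayed 141 bp away. Lef1, a nuclear partner of beta-catenin, and the ligand Wnt7b kept it over the whole site. Their H3K27ac peaks were weaker (4.86 and 5.59) than those at Fzd7, Fzd2 and Fzd1 (21.2, 33.6 and 28.2).

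In the Tgf-beta and Bmp list 22 of 55 genes were at sites and 6 lost H3K27me3 (27.3%), among them the ligand Tgfb2, the receptor Tgfbr1 and the targets Id3 and Id2. At Tgfbr1 and Id2 a crotonate peak lay 13 and 275 bp away. The inhibitor Smad6 and the ligands Gdf6 and Bmp2 kept H3K27me3, and Gdf6 and Bmp2 lost H3K27ac peaks of folds 4.38 and 3.41. Of the Hedgehog pathway 6 of 17 genes were at sites. The receptor Ptch1 (40 bp under H3K27me3, an edge), the transcription factor Gli3 (1514 bp) and the surface protein Gas1 (173 bp) lost it.

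The differentiation lists mixed both outcomes. Axon guidance genes lost H3K27me3 at 9 of 35 (25.7%), with the receptors Ephb4 (2352 bp) and Epha4 (3085 bp) among them, and proneural and neuronal factors at 4 of 16. In the latter, H3K27me3 had covered all 1170 bp at Atoh7, 1044 bp at Bcl11b and 41 bp at Myt1l, and a crotonate peak lay within 423 bp of each. Isl2 and Gata3 kept H3K27me3 over 1841 and 1520 bp in both treatments, with control folds of 256 and 234. Olig2, the oligodendrocyte-lineage factor, lost 1770 bp of weak H3K27me3 (fold 4.88) in a 9210-bp site fully covered by H3K27ac in both. Pdgfra, the receptor of oligodendrocyte precursors, kept it (4729 and 3660 bp).

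The next lists had lower shares, with intervals that hold the background. Mesoderm and endoderm regulators lost it at 0 of 8 (0 to 36.9%), among them Osr2 and Foxc1, although a weaker second site at Tcf15 lost it. Of 39 Hox genes 1 was at a site, which kept it. Polycomb and trithorax genes lost it at 2 of 13 (1.92 to 45.4%). One of these was Ezh1, a PRC2 enzyme, which lost 22 bp. Cbx8, Pcgf1 and Bmi1 kept it.

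The remaining lists lay on both sides of the background, each with an interval that holds it. Immediate early genes lost H3K27me3 at 4 of 18, including Junb (1027 bp). Cell cycle inhibitors and growth arrest genes lost it at 3 of 13, including Cebpb (1050 bp), and Fgf and Egf genes at 2 of 17, Dusp4 and Egfr. Neuronal cytoskeleton and synapse genes lost it at 6 of 16 (37.5%, 15.2 to 64.6) and astrocyte genes at 3 of 5 (60.0%, 14.7 to 94.7). For the oligodendrocyte list it was 2 of 9, and for cell cycle and DNA replication genes 1 of 4, Ccnd1. Ribosomal protein genes lost it at 11 of 34 (32.4%). Their H3K27me3 peaks were narrow, such as 394 bp at Rpl34 and 384 bp at Rps3. Near-identical copies of these genes exist elsewhere in the genome, and their part in these peaks was not tested.

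**Figure D5:**
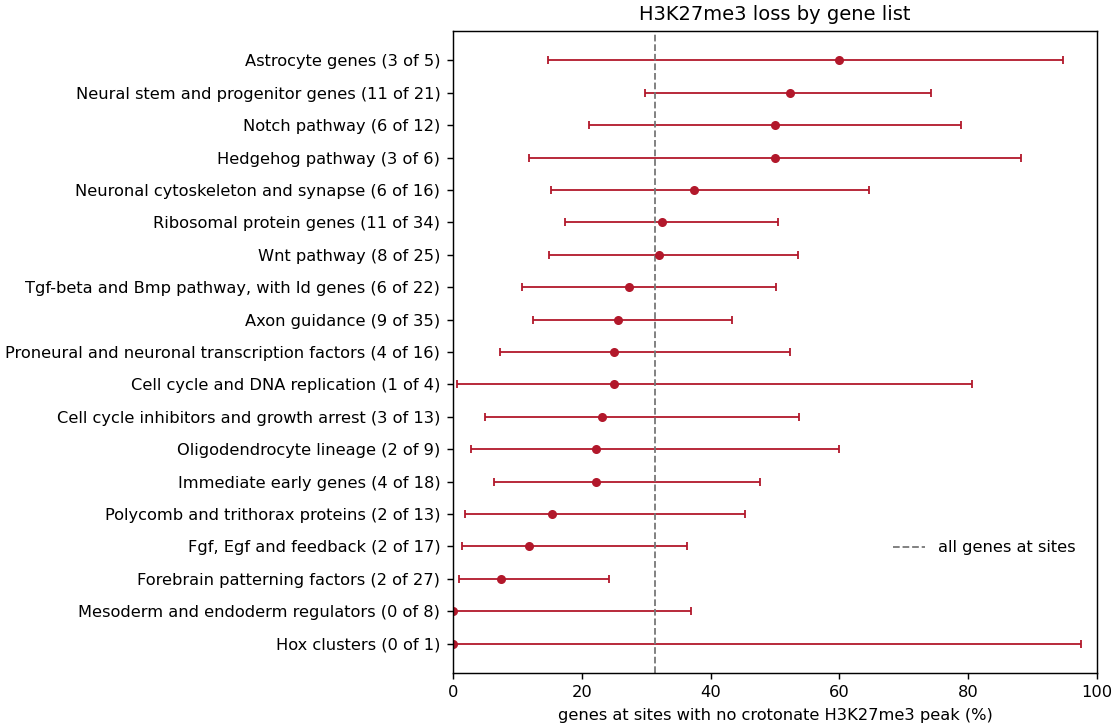
Points give the percentage of genes at sites that had no crotonate H3K27me3 peak for each of 19 gene lists, with exact 95% intervals for counting error and the counts beside each name. The dashed line is the 31.3% of all genes at sites. Forebrain patterning factors lie at 7.41% and neural stem and progenitor genes at 52.4%, and only the interval of the former lies wholly to the left of the line.

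Strong control H3K27me3 peaks among the lost sites near genes were often parts of a wider peak that met a crotonate peak outside the site. At Erich1, Mto1, Sox1, Cntnap1 and Tcf15 the site held 45, 21, 2475, 134 and 397 bp of a control peak of 3335 to 13977 bp. A crotonate peak lay 184 to 710 bp away. The strongest lost H3K27ac peaks were at Leng9, Adamts20, Lrfn2, Rgs22, Rasgrp1 and Map6. At Leng9 the site took 164 bp of a 2681-bp H3K27ac peak, and at Adamts20 and Lrfn2 the whole 510-bp and 440-bp peaks had gone while H3K27me3 stayed.

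The sites that lost H3K4me3 were small and mostly more than 1 kb from a gene position. The 31 peaks were 260 to 659 bp wide with folds of 2.41 to 9.45, and 1 of them was within 1 kb of a gene position (Stac2, 260 bp). A crotonate H3K4me3 peak lay within 1 kb of 4. The 1 site without H3K9cr after crotonate was at chr2:10737008-10737506, with control folds of 7.81 for H3K9cr and 4.60 for H3K4me3.

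Among sites that kept all marks, strong H3K27me3 was found at Rsrc1, Isl2, Onecut2, Osr2 and Aatf, and the strongest H3K27ac at Sema4c, Rfx4, Rpl34, Eif3d, Rps3 and Cbx8. At Rsrc1 and Aatf the H3K27me3 peak, wider than 19 kb, reached 197 and 299 bp into the site. At Aatf H3K27ac covered all 1580 bp of the site in control, so the marks overlapped there. At Rfx4, a forebrain transcription factor, H3K27me3 covered 2049 bp of 6532 in control and 297 bp in crotonate. Of the widest sites near genes, Sall1 and Sall3 lost H3K27me3 peaks with folds of 5.99 and 3.25. Otx1, Six3 and Nr2f1 kept it, with 9670, 13333 and 10244 bp covered in control and 6639, 13333 and 5855 in crotonate.

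The same rule applied to the crotonate lists gave 2265 sites of 17377 H3K4me3 peaks (13.0%), beside 19.1% in control. Of these, 1925 (85%) overlapped a control site and 340 did not. Most of the 340 had H3K4me3 and H3K27me3 without H3K27ac in control (251, 73.8%), and 42 had H3K4me3 and H3K27ac without H3K27me3. The 6 with the strongest crotonate H3K27me3 were at Tbx18, Tbx3, Foxd2, Irx3, Gdf7 and Islr2, all developmental regulators or signals except the membrane protein Islr2. Each had a weak H3K27ac peak in the crotonate list (folds of 3.47 to 4.89) and none in control, inside a broad H3K27me3 peak. A new H3K27ac peak was called at 17.2% of H3K4me3 peaks with H3K27me3 but no H3K27ac in control, beside 18.8% of all H3K4me3 peaks without control H3K27ac and 25.7% of those with neither mark. New H3K27ac was thus no more frequent at trimethylated peaks than at others.

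At the edge of the rule the overlap was slight. The smallest overlaps were 1 bp of H3K27me3 at a site on chromosome 10, 5 bp on chromosome 18 and 6 bp at Ncoa1, and 110 sites overlapped either mark by less than 100 bp. Just outside, the H3K4me3 peaks of Pgf and Rusc1 had H3K27ac 153 and 166 bases away. On the other side, that of Acp1 touched an H3K27me3 peak end to end with 0 bases between. Neighbouring sites share peaks: 205 sites met an H3K27me3 peak that touched another site too, and 55 an H3K27ac peak, so sites are not all independent.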

How the data were processed

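Native ChIP-seq peak lists of 8 libraries were used, 1 for each mark and treatment; the 2 input libraries were not used here. The submitters' processing notes name Bowtie2 2.4.1, MACS2 2.2.7.1 and GRCm38, while the calling settings were not given in the sources used here. Per the file headers, each peak has a pileup (a deposited coverage signal), a fold enrichment (a deposited ratio) and a deposited −log10 p-value and −log10 q-value from the authors' caller. Positions count from 1 with both ends included.

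Overlaps of at least 1 bp were found in Python 3.11.15 with pandas 2.3.3 and numpy 2.4.6, in code tested on simulated peaks. Shares carry exact (Clopper-Pearson) 95% intervals from scipy 1.17.1. They treat sites as independent and cover counting error only. Without replicate libraries no test was run. Intervals of a difference combine those of both shares. Gene positions and promoter sequences came from RefSeq tables of GRCm38.p6. A genome sequence was not used here.

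The sites and the gene lists were chosen with earlier results of these data known. Genes were named by rule: the 6 strongest lost and kept sites of a mark, the 4 strongest members of each list that lost and that kept H3K27me3, the 6 widest sites, the 6 strongest new crotonate sites and the 3 sites nearest each edge of the rule. Alternatives were other overlaps, stronger peaks, lists of equal length, other definitions of a kept mark and other distances to genes. Some items that these rules name are not reported here.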

Additional observations from a re-analysis of the deposited data

How the results depend on the processing

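Of 151 alternative values, 97 lay within the error of the reported value (for counts, within 1.5 times), 52 lay outside it with no change of sign and 2 reversed. Some of the 97 could not differ, because the altered setting does not enter the value. The number of sites, for instance, does not depend on how a kept mark is defined, and lists of equal length left every control list uncut. The tally is therefore no measure of robustness. The share of sites losing H3K27me3 (31.2%) was 27.6% with overlaps of at least 200 bp, 35.3% with lists of equal length, 20.5% when a peak within 1 kb counted as kept and 38.7% when 200 bp had to be covered. Under alternatives chosen after seeing the data it was 24.6% without H3K27me3 peaks under 500 bp, 23.1% for loss along the whole control peak and 33.0% with the H3K27me3 summit inside the site. Under the same 7 settings in that order, the difference from H3K4me3 peaks without H3K27ac (27 points) was 24.4, 30.0, 19, 31.8, 21.5, 20.8 and 29.3 points. It was 21.4 with the stronger 50% of each control list, and 43.0, 14.6, 4.24 and 1.33 in the H3K27me3 quartiles. The difference between the strongest and weakest H3K27ac quartile (39.4 points) was 17.7 with the stronger 50%, 30.0 within 1 kb, 32.5 without peaks under 500 bp, 33.9 for the whole peak, 47.4 with the summit inside, and 31.3, 19.6, 9.86 and 5.45 in the H3K27me3 quartiles.

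The share with all 4 marks (59.6%) was 62.8% with 200 bp overlaps, 67.5% with the stronger 50%, 54.0% with equal lengths, 70.0% within 1 kb, 52.8% with 200 bp covered, 65.1% without peaks under 500 bp and 67.0% for the whole peak. The share losing H3K27ac (9.71%) was 0% with the stronger 50%, 11.7% with equal lengths and 8.06% with the summit inside. Its difference from H3K4me3 peaks without H3K27me3 (8.24 points) was -0.0129 (-0.0718 to 0.468) with the stronger 50%. In quartile 2 of H3K27ac it was -0.0691 (-0.249 to 0.416). Both count as reversed by sign, but both intervals hold 0, so the direction was not settled. The difference was 6.2 in quartile 1, 0.738 in quartile 3 and 0 in quartile 4, 10.0 with equal lengths and 6.59 with the summit inside. The cause was not tested. With the stronger 50% and with the summit inside, there were 765 and 1910 sites and 739 and 1594 genes, H3K4me3 was lost at 0% and 0.314%, and H3K9cr at 0% and 0%. H3K9cr was at 91.5% of sites with the stronger 50% of its list. Base composition over whole peaks was not run, since no genome was used here. No paired analysis was possible because each mark and treatment has 1 library. Depth is unknown, so how far it sets the calls near the authors' threshold was not tested.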
